A study of Mus musculus with 8 samples.

Results

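Chemokines are small secreted proteins that attract leukocytes, and 9 of their genes were followed across the study's 6 RNA-seq libraries, made from B cells of mouse bone marrow. The genes were Ccl3, Ccl4, Ccl5, Ccl6, Ccl9, Ccl22, Cxcl2, Cxcl10 and Cxcl16, each matched by symbol to 1 of the 54532 Ensembl identifiers in the count table. They were chosen on the readout itself, because the unadjusted p-value of Ccl4 for ovariectomized against sham-operated mice was among the lowest in the table (0.00214 in edgeR's quasi-likelihood test, rank 2 of 15305 genes tested, adjusted p = 0.811). That contrast therefore serves as a description of the 9 genes and is given without a test for them. A filter on low reads was passed by 8 of the 9, all but Cxcl2.

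The 3 Sham libraries came from sham-operated mice and the 3 OVX libraries from ovariectomized mice, in which removal of the ovaries is the surgical model of menopause. All 6 were prepared from bone marrow B cells sorted with magnetic beads. The labels of these libraries name no strain, age or time after surgery, and nothing in them says whether a library is 1 mouse, so p-values measure the spread between these libraries only. Libraries of HIF-1α ChIP and of input chromatin, from cells of C57BL/6 mice, were not analysed here.

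CC and CXC chemokines differ in the spacing of their first conserved cysteines and act on G protein-coupled receptors of leukocytes. In bone marrow they are best known as products of myeloid cells, T cells and NK cells that guide neutrophils, monocytes and lymphocytes, and B cells make several of them after activation of their antigen receptor. Ccl3, Ccl5, Ccl6 and Ccl9 are ligands of Ccr1. Ccl22 acts on Ccr4, Cxcl2 on Cxcr2, Cxcl10 on Cxcr3, and Cxcl16, which also exists as a transmembrane protein, on Cxcr6.

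Between 23838775 and 33136701 reads were counted per library. Levels are given in CPM, the reads of a gene per 1000000 counts of the library after scaling with edgeR's TMM factors. Reads of the labelled cell type were present in every library, where 9 B cell genes such as Cd79a and Pax5 held between 0.79% and 0.906% of the counts. Reads of other cells were present too. In Sham replicates 1 to 3 the 12 neutrophil genes held 0.242%, 0.33% and 0.896% of the counts. OVX replicates 1 to 3 had 0.388%, 0.106% and 0.114%, so that Sham replicate 3 stood apart. There the 9 B cell genes held 0.79%. These sums are over different genes without use of their lengths, so they give no proportion of cells. The 14 monocyte and macrophage genes held 0.143% to 0.277% in Sham and 0.0831% to 0.207% in OVX, highest in Sham replicate 2, and none of these 26 genes was at 0 in any library. Of the 14, 10 were highest in Sham replicate 2, but Lyz2 and Ccr2 were highest in Sham replicate 3. Their sum therefore does not stand for each of them. In bulk libraries fewer cells of a type and less RNA per cell cannot be told apart.

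Part of the set is a gene cluster. Ccl5, Ccl9, Ccl6, Ccl3 and Ccl4 are the only 5 protein-coding genes within 139 kb of chromosome 11 (83525778 to 83664683, GRCm38.p6, the assembly known as mm10) in the RefSeq annotation. Cxcl16 is elsewhere on chromosome 11, Cxcl2 and Cxcl10 are on chromosome 5 and Ccl22 is on chromosome 8. In RefSeq the Ccl4 gene, through a predicted transcript, overlaps the Ccl3 gene by 755 bases. Ccl5, Ccl6 and Cxcl10 each lie inside the bounds of another gene, and Cxcl16 overlaps Zmynd15 by 552 bases. The sources used here do not say whether reads were counted by strand, so reads of overlapping genes could not be told apart. The long noncoding gene E230016K23Rik, which spans Ccl6, had at most 14 reads in a library, against 288 or more for Ccl6.

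RefSeq promoters were available for 6 of the 9 genes (Ccl3, Ccl6, Ccl9, Ccl22, Cxcl2 and Cxcl10). The 250 bases before the annotated start are shown for Ccl3, Ccl6 and Ccl9, which are neighbors on chromosome 11, and for Cxcl10, which held the most of the motifs searched. Capitals mark any match, on either strand, to the 6 motifs described after the sequences.
Ccl3 promoter, chr11:83649379-83649628, minus strand: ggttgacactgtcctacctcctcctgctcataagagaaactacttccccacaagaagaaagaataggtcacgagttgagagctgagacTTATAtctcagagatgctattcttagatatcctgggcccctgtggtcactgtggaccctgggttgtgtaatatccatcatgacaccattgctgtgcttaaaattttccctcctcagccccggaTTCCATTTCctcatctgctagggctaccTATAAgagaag
Ccl6 promoter, chr11:83593088-83593337, minus strand: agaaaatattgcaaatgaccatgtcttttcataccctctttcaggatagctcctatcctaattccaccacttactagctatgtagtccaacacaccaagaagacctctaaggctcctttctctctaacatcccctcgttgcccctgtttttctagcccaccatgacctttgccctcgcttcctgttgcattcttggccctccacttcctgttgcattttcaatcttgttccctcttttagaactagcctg
Ccl9 promoter, chr11:83578637-83578886, minus strand: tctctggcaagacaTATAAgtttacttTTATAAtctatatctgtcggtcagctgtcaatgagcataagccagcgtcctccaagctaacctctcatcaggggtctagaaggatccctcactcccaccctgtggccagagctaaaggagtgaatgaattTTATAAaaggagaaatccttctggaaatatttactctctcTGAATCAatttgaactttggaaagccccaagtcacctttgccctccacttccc
Cxcl10 promoter, chr5:92348890-92349139, minus strand: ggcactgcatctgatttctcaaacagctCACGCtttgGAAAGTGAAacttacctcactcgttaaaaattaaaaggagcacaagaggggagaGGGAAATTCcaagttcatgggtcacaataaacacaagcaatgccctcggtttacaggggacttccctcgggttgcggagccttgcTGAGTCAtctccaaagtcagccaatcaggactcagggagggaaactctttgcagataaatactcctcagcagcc

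The motifs were searched on both strands of these 250 bases in 32817 RefSeq promoters. The kappaB motif was written as GGGANNTTC and was found in 3.23% of all promoters, and in Cxcl2 and Cxcl10 among the 6 genes. Part of the interferon response element, GAAANNGAA, was found in 7.12% of promoters and in Ccl3 and Cxcl10. The AP-1 motif TGANTCA was found in 6.75% and in Ccl9 and Cxcl10. The hypoxia response element cores were ACGTG, found in 16.6% and in none of the 6, and then GCGTG, found in 28.1% and in Cxcl2 and Cxcl10. The TATA box core TATAA was found in 22.8% and in Ccl3 and Ccl9. In Cxcl2 the kappaB matches of both strands overlapped each other, and in Ccl9 TATAA matches of opposite strands overlapped. The promoters of Ccl6 and Ccl22 held none of the 6 motifs. That of Ccl6 shared with Ccl9 a run of 13 bases, gccctccacttcc, which began 55 bases before the start in Ccl6 and 14 in Ccl9. A match is a match of letters and was not tested as a binding site.

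Ccl4, which encodes a chemokine that attracts macrophages and T cells, was the gene on which the set was built. Its reads were 16, 25 and 30 for Sham replicates 1 to 3, against 8, 5 and 5 for OVX replicates 1 to 3. In CPM these are 0.675, 0.881 and 1.21 in Sham and 0.326, 0.177 and 0.151 in OVX. Each OVX library lay below each of the Sham libraries, which was so for 4.12% of the genes tested, with a further 4.33% above. Mean levels were 0.921 ± 0.268 CPM for Sham and 0.218 ± 0.0943 CPM for OVX (SD, n = 3 each), and the log2 fold change was -2.09 (standard error 0.45). With one library left out the log2 fold change lay between -2.46 and -1.86. Ccl4 passed the filter on low reads only through Sham, where 3 libraries were above its limit of 0.38 CPM, whereas no OVX library was. Exact 95% Poisson intervals, which cover counting error only, were 0.386 to 1.1 CPM for Sham replicate 1, the lowest of its group. They were 0.141 to 0.644, 0.0572 to 0.413 and 0.049 to 0.354 CPM for OVX replicates 1 to 3, so that the first 2 overlapped Sham replicate 1 and the last did not.

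Ccl3, the neighbor of Ccl4 and a ligand of Ccr1, did not keep its groups apart. It had 17, 33 and 63 reads in Sham replicates 1 to 3 and 33, 8 and 6 in OVX replicates 1 to 3. OVX replicate 1 lay above Sham replicates 1 and 2 in CPM (1.34 against 0.718 and 1.16), and the highest level was 2.54 CPM in Sham replicate 3. Mean levels were 1.47 ± 0.947 CPM for Sham and 0.603 ± 0.644 CPM for OVX (SD, n = 3 each), and the log2 fold change was -1.32 (standard error 0.80). This value was -2.65 without OVX replicate 1 and -0.69 without Sham replicate 3. The ratio of Ccl4 to Ccl3 reads ran from 0.242 in OVX replicate 1 to 0.941 in Sham replicate 1. In the remaining libraries it was 0.758 (Sham replicate 2), 0.476 (Sham replicate 3), 0.625 (OVX replicate 2) and 0.833 (OVX replicate 3), and the groups overlapped.

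**Figure D1:**
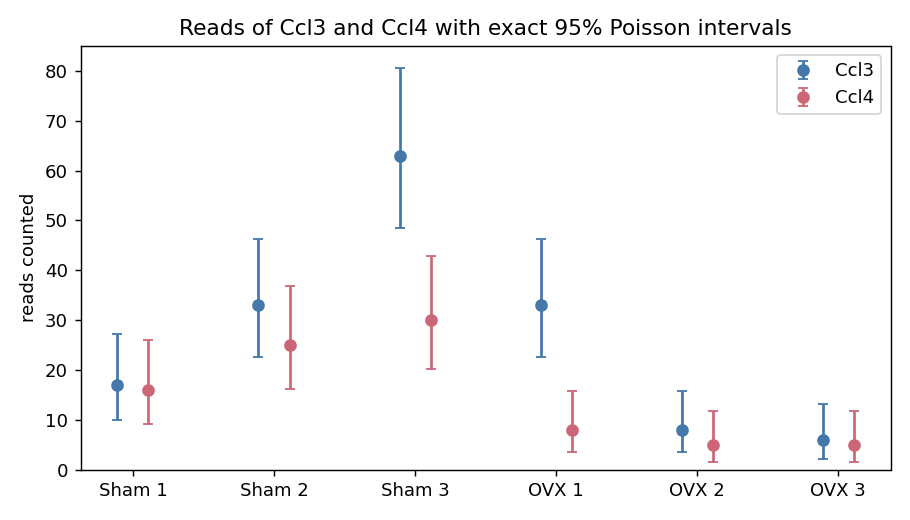
Reads of Ccl3 and Ccl4 (y axis, reads counted) in each of the 6 libraries (x axis), with exact 95% Poisson intervals that cover counting error only. Ccl4 has at most 8 reads in every OVX library, whereas Ccl3 has 33 reads in OVX replicate 1, as many as in Sham replicate 2.

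Ccl5, a ligand of Ccr1 and Ccr3 that T cells, NK cells and platelets carry, had 40, 102 and 156 reads in Sham replicates 1 to 3 and 62, 20 and 33 in OVX replicates 1 to 3. OVX replicate 1 was above Sham replicate 1, so the groups overlapped. Mean levels were 3.85 ± 2.31 CPM for Sham and 1.41 ± 0.977 CPM for OVX (SD, n = 3 each), and the log2 fold change was -1.46 (standard error 0.61). It was -0.93 without Sham replicate 3 and -2.16 without OVX replicate 1.

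Ccl6 and Ccl9 are ligands of Ccr1 made by myeloid cells, and Ccl9 is also known as a product of osteoclasts. Ccl6 had the most reads of the 9 genes, 454, 925 and 1299 in Sham replicates 1 to 3 and 719, 288 and 534 in OVX replicates 1 to 3. OVX replicate 1 (29.3 CPM) lay above Sham replicate 1 (19.2 CPM). Mean levels were 34.7 ± 16.7 CPM for Sham and 18.5 ± 9.78 CPM for OVX (SD, n = 3 each), and the log2 fold change was -0.91 (standard error 0.46). Ccl9 had 79, 245 and 408 reads in Sham and 156, 48 and 65 in OVX, in the same order of replicates. Again OVX replicate 1 lay above Sham replicate 1. Here the means were 9.46 ± 6.58 CPM for Sham and 3.34 ± 2.62 CPM for OVX (SD, n = 3 each), and the log2 fold change was -1.51 (standard error 0.69). Without Sham replicate 3 the log2 fold changes were -0.49 for Ccl6 and -0.86 for Ccl9, and without OVX replicate 1 they were -1.39 and -2.36.

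The 3 CXC chemokines were less alike. Cxcl10, an interferon-induced ligand of Cxcr3, had 31, 97 and 81 reads in Sham replicates 1 to 3 and 51, 10 and 64 in OVX replicates 1 to 3. OVX replicate 2 was far below the other 5 libraries, with 0.353 CPM against 1.31 or more, and the other OVX libraries (2.08 and 1.94 CPM) lay above Sham replicate 1. Means were 2.66 ± 1.17 CPM for Sham and 1.46 ± 0.958 CPM for OVX (SD, n = 3 each). The log2 fold change was -0.87 (standard error 0.64), and -0.41 without OVX replicate 2. Cxcl16, the ligand of Cxcr6, had 30, 82 and 63 reads in Sham and 33, 26 and 50 in OVX, in the order of replicates, with means of 2.23 ± 0.853 CPM for Sham and 1.26 ± 0.307 CPM for OVX (SD, n = 3 each). Sham replicate 1 was within the range of the OVX libraries, and the log2 fold change was -0.82 (standard error 0.38), or -0.59 without Sham replicate 2. Cxcl2, a ligand of Cxcr2 that attracts neutrophils, had 2, 9 and 13 reads in Sham and 22, 2 and 3 in OVX, the highest of all in OVX replicate 1. In a fit without the filter on low reads its log2 fold change was 0.13 (standard error 0.91), and it ran from -0.31 to 0.61 over the 4 fits with one library left out in which it passed the filter. Leaving out OVX replicate 1 or Sham replicate 3 removed it from the genes tested.

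Ccl22, a ligand of Ccr4 made by dendritic cells, macrophages and activated B cells, had 26, 24 and 15 reads in Sham replicates 1 to 3 and 22, 34 and 11 in OVX replicates 1 to 3. It was highest in OVX replicate 2, the library in which 6 of the 9 genes were lowest, and its level in Sham replicate 3 was the second lowest. Means were 0.849 ± 0.247 CPM for Sham and 0.81 ± 0.44 CPM for OVX (SD, n = 3 each). The log2 fold change was -0.08 (standard error 0.50), and its sign changed without OVX replicate 3 (0.31) and without Sham replicate 1 (0.14).

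**Figure D2:**
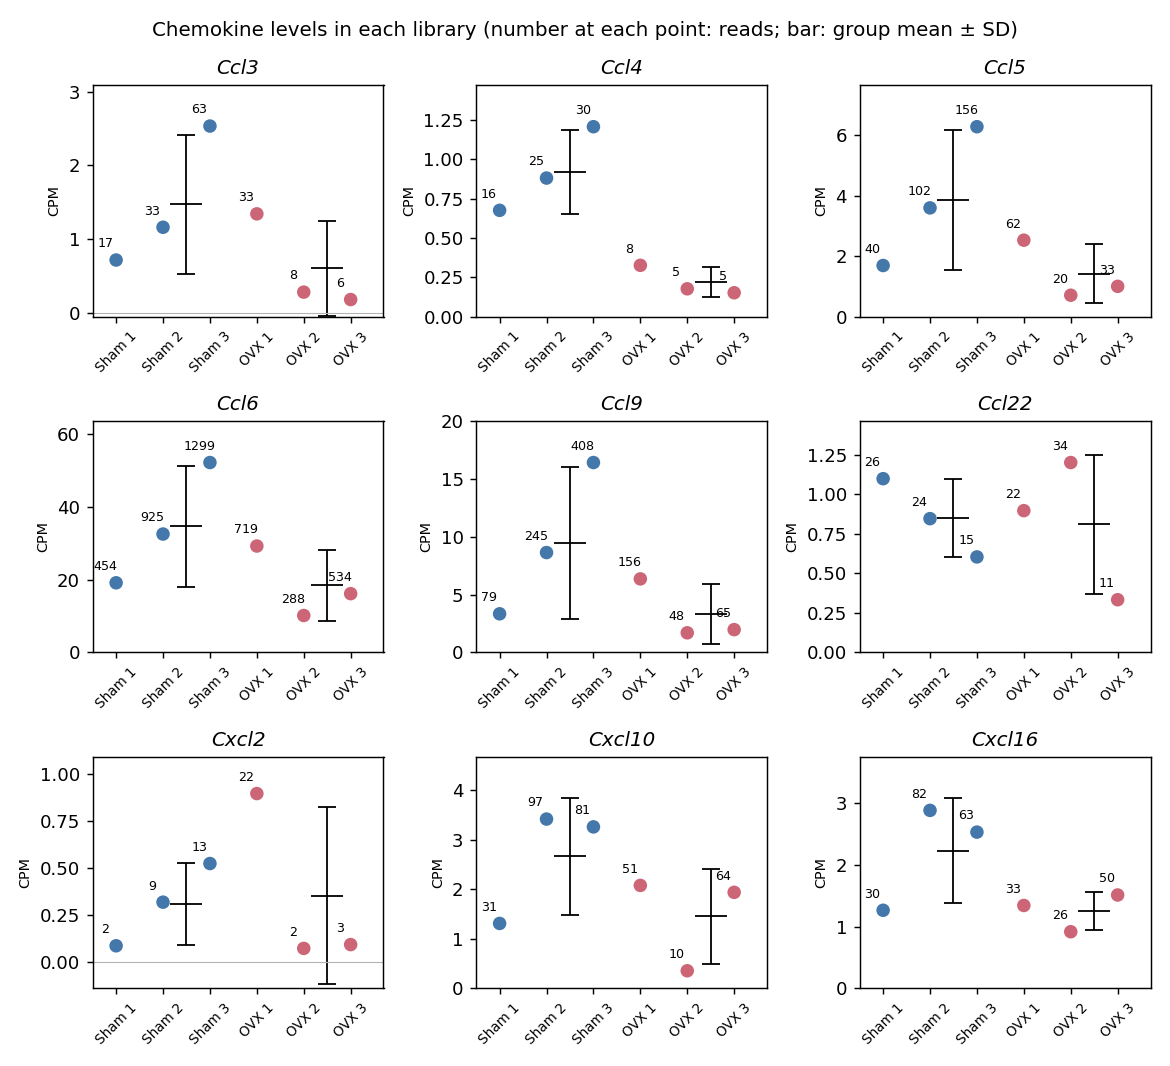
Level of each of the 9 chemokine genes in CPM (y axes, linear) in each library (x axes, Sham in blue and OVX in red), with the number of reads beside each point and the group mean ± SD (n = 3) as a bar. Only Ccl4 has all OVX points below all Sham points, and OVX replicate 1 is the highest OVX point for 7 of the 9 genes.

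Over the 9 genes, 1 had groups that did not overlap, the gene that chose the set. Of the 8 tested, all had a log2 fold change below 0 with all libraries included, the median being -1.12 against -0.01 over all genes tested, and 2, Ccl4 and Ccl5, were lower at an unadjusted p-value under 0.05 in edgeR's quasi-likelihood test, against 2.28% of all genes lower and 1.47% higher. As this contrast chose the set and the filter retained genes that are high in Sham, nothing is drawn from these counts. With the threshold of 0.05 on adjusted p-values, edgeR called 0 of the 15305 genes (0%), as did DESeq2 and limma-voom. The unadjusted p-value was under 0.05 for 574 genes in edgeR, 755 in DESeq2 and 594 in limma-voom.

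The genes differed in how they varied from library to library, whatever the group. Sham replicate 3 held the highest level of 5 of the 9 genes, Ccl3, Ccl4, Ccl5, Ccl6 and Ccl9, which are the 5 neighbors on chromosome 11. Cxcl10 and Cxcl16 were highest in Sham replicate 2, Cxcl2 in OVX replicate 1 and Ccl22 in OVX replicate 2. The lowest level was in OVX replicate 2 for 6 genes and in OVX replicate 3 for Ccl3, Ccl4 and Ccl22. To compare patterns, log2 CPM was centered on each gene's mean over the 6 libraries, and 2 genes were compared by the root mean square of their differences. Ccl5 and Ccl9 were the closest pair of the set (0.17 on the log2 scale), followed by Ccl5 and Ccl6 (0.301) and by Ccl3 and Ccl9 (0.333). Ccl4 was nearest to Ccl5 (0.478) and 0.601 from Ccl3. Ccl22 was at least 0.913 from every other gene of the set. These distances are a description over 6 libraries, and genes with few reads carry more counting error in them.

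**Figure D3:**
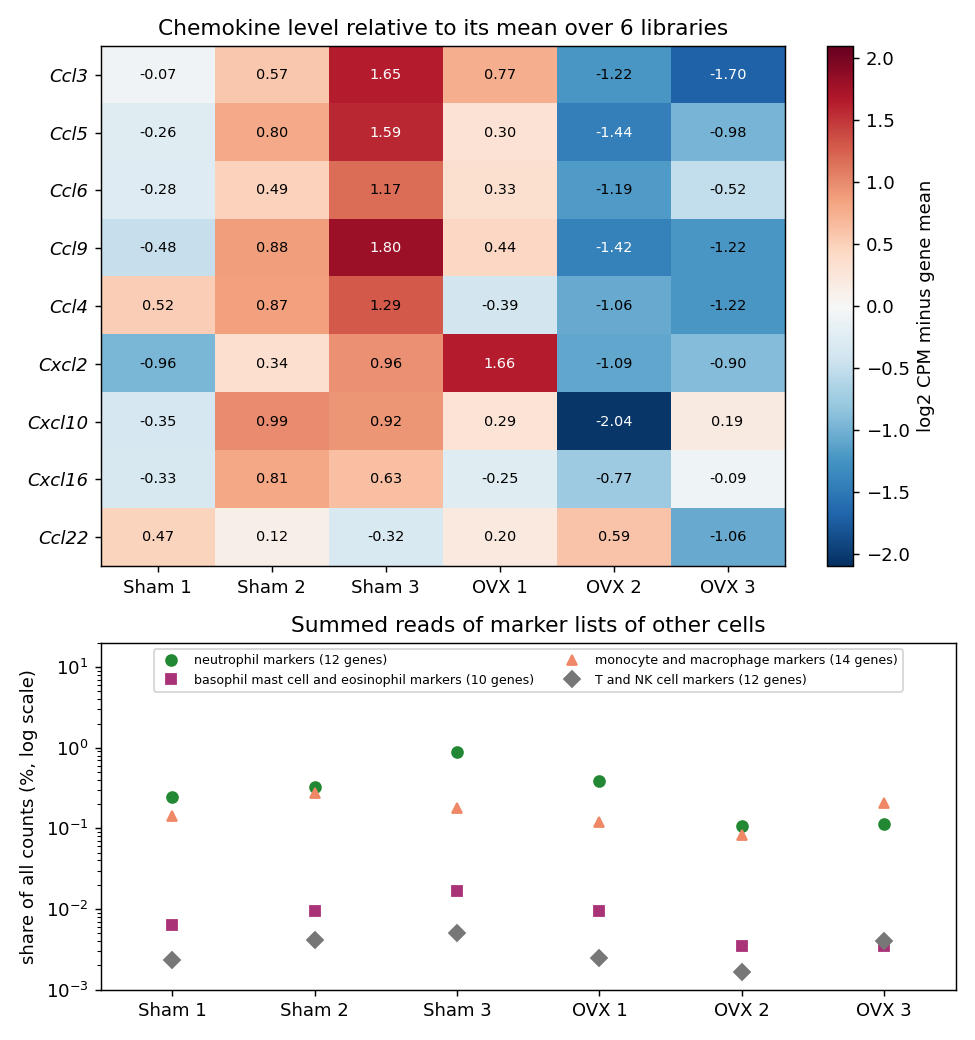
Top, log2 CPM of each chemokine gene minus its own mean over the 6 libraries (color scale and printed values, log2 units). Bottom, share of all counts held by 4 marker lists of other cells in the same libraries (y axis, percent, log scale). Ccl3, Ccl5, Ccl6 and Ccl9 are highest in Sham replicate 3, as are the 12 neutrophil genes with 0.896% of the counts, whereas Ccl22 is below its mean there.

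The same libraries differed in transcripts of other cells, and some of the 9 genes moved with them. Sham replicate 3 had the highest level of each of the 12 neutrophil genes. The 10 basophil, mast cell and eosinophil genes held 0.00635%, 0.00948% and 0.0167% of the counts in Sham replicates 1 to 3 and 0.00946%, 0.00348% and 0.00351% in OVX replicates 1 to 3. In CPM the highest library exceeded the lowest 8.89-fold for Ccl5 and 9.69-fold for Ccl9. Counted per 1000 reads of the neutrophil genes in the same library, Ccl5 ran from 0.652 to 1.11 and Ccl9 from 1.37 to 2.67, ranges of 1.71-fold and 1.96-fold. Ccl3 went from 14.0-fold in CPM to 2.27-fold, and Ccl6 from 5.14-fold to 2.41-fold, or 1.6-fold per read of the basophil, mast cell and eosinophil genes. Ccl4 went from 7.97-fold to 3.29-fold and ran from 0.0841 to 0.277 reads per 1000 neutrophil reads. On this scale Sham replicate 3 (0.135) was inside the range of OVX (0.0841, 0.163 and 0.132), with Sham replicates 1 and 2 (0.277 and 0.273) above it. Per 1000 reads of each of the following lists the groups of Ccl4 did not overlap. As Ccl4 was chosen for this contrast, nothing is drawn from that. Its values were 7.24 to 10.6 in Sham and 3.45 to 4.97 in OVX for the basophil, mast cell and eosinophil genes. They were 0.325 to 0.672 and 0.0729 to 0.269 for the monocyte and macrophage genes, and 21.9 to 28.5 and 3.77 to 13.1 for the T and NK cell genes. With Cd4 taken out of the T and NK cell genes, an alternative chosen after seeing the data, they were 43.4 to 65 and 20.5 to 25.1.

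Cxcl16 varied 3.15-fold in CPM, 1.94-fold per read of the 14 monocyte and macrophage genes and 1.91-fold per read of the 12 T and NK cell genes, and was wider per neutrophil read (4.65-fold). The monocyte and macrophage genes did not share a pattern, so ranges per read of their sum do not speak for Lyz2 or Ccr2. Cxcl10 varied 9.68-fold in CPM and less on all 4 scales. It varied 4.37-fold per monocyte and macrophage read, 4.03-fold per T and NK cell read and 5.17-fold per neutrophil read. Per read of the basophil, mast cell and eosinophil genes it varied 5.54-fold. Ccl22 was wider on each of these scales than in CPM, with 3.6-fold in CPM, 16.4-fold per neutrophil read and 8.81-fold per monocyte and macrophage read. The 12 T and NK cell genes, 1 of which, Gzma, had no read in a library, held 0.00236% to 0.005% in Sham and 0.00164% to 0.004% in OVX. Of the 11 tested, 10 were lower in OVX, with a median of -1.34 on the log2 scale, against 51.8% lower over all genes tested. Cd4 alone gave 1081 of the 1325 reads of this list in OVX replicate 3. Per read of the list Ccl5 varied 5.05-fold with Cd4 and 2.25-fold without it, the latter an alternative chosen after seeing the data. The part of other cells in the level of any of the 9 genes was not tested, and which cells made these reads cannot be read from bulk counts.

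**Figure D4:**
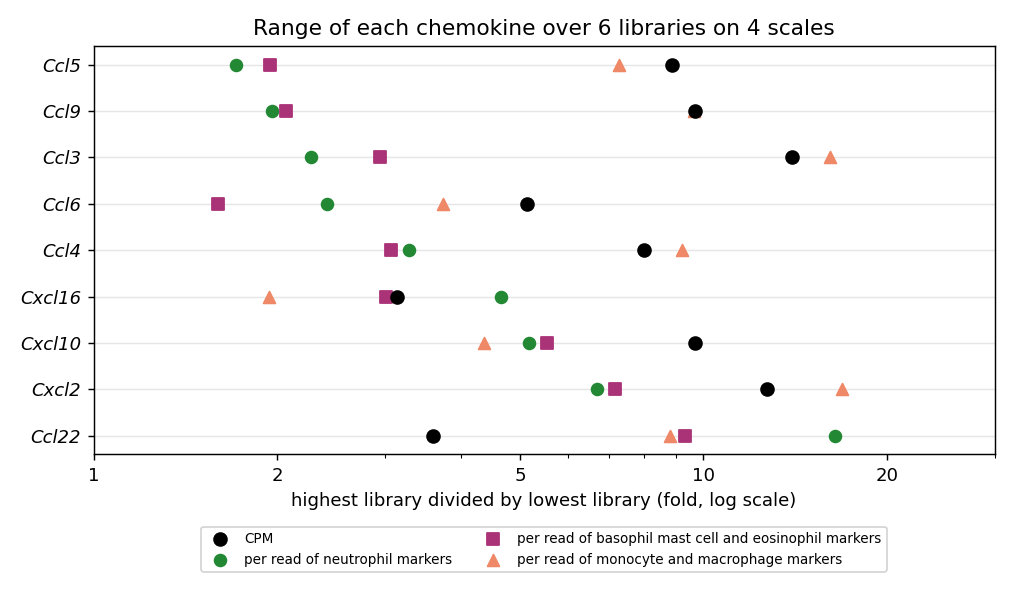
Highest library divided by lowest library (x axis, fold, log scale) for each chemokine gene in CPM and per read of 3 marker lists in the same library. The range of Ccl5 and Ccl9 is below 2.1-fold per neutrophil read or per read of the basophil, mast cell and eosinophil genes, whereas that of Ccl22 is widest, 16.4-fold, per neutrophil read.

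The genes whose pattern was most like each chemokine were looked up among the tested genes with a mean of at least 1 CPM. For Ccl4 these were Fhdc1 (root mean square difference 0.24 on the log2 scale), Gm34084 (0.298), Trim10 (0.345), Msr1 (0.375), Ctsw (0.38), Ccno (0.389), Prss57 (0.395), Bex6 (0.398), Baiap3 (0.402) and Gata2 (0.408), while the median over 13155 genes was 0.967. Among them, Msr1 is a macrophage scavenger receptor and Ctsw a protease of cytotoxic lymphocytes. Prss57 is a protease of neutrophil granules and Gata2 a transcription factor of progenitors and mast cells. The closest genes, Fhdc1, Gm34084 and Trim10, are not among those described, so no cell type is read from the list. Fhdc1 had 48, 75 and 57 reads in Sham replicates 1 to 3 and 27, 16 and 20 in OVX replicates 1 to 3.

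The other members of the set were close to other genes. Ccl3 was nearest to Fcnb (0.137), Retnlg (0.152) and Clec4e (0.155), which are genes of neutrophils and other myeloid cells. Nearest to Ccl5 were Il2rb (0.1), a receptor chain of T and NK cells, Tspo2 (0.102) and S100a6 (0.118). Ccl6 was nearest to Slpi (0.093), Lyz2 (0.094), the lysozyme of myeloid cells, and Cebpb (0.129). Ccl9 was nearest to Hdc (0.121), which makes histamine, Runx2 (0.133) and the chemokine receptor Cx3cr1 (0.136). Cxcl16 was nearest to Nrp1 (0.064), Agap1 (0.092) and Dnajb14 (0.12), and Cxcl10 to Hcar2 (0.245), Dmxl2 (0.264) and Dock1 (0.266). The nearest to Cxcl2 were Ear6 (0.388), Rnd1 (0.435) and Fhod3 (0.45). Ccl22 was nearest to Gm46223 (0.165), Acyp2 (0.201) and 1700041G16Rik (0.27). Each is the smallest of many distances over only 6 libraries, and no cell type is read from these genes.

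Of 23 chemokine receptor genes 17 were tested and 0 were called. Their median log2 fold change was -0.87, with 14 lower and 3 higher in OVX, against 51.8% lower over all genes tested. At an unadjusted p-value under 0.05 in edgeR's quasi-likelihood test 2 were lower and 0 higher, against 2.28% and 1.47% of all genes tested. The median was -0.31 without Sham replicate 2 and -1.22 without OVX replicate 1. Those 2 were Cxcr3, the receptor of Cxcl10, and Ccr10. Their log2 fold changes were -1.17 (standard error 0.40) and -1.96 (standard error 0.81), both with an adjusted p of 0.811 in edgeR. Cxcr3 had 30, 100 and 52 reads in Sham replicates 1 to 3 and 26, 31 and 30 in OVX replicates 1 to 3. Each OVX library was below each Sham library in CPM, as was so for 4.12% of all genes tested. The value of Cxcr3 was -0.72 without Sham replicate 2. Ccr10 had 6, 34 and 35 reads in Sham and 13, 4 and 3 in OVX, and without OVX replicate 1 its value was -3.01.

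Ccr1, a receptor of Ccl3, Ccl5, Ccl6 and Ccl9, had 139, 243 and 495 reads in Sham replicates 1 to 3 and 267, 103 and 144 in OVX replicates 1 to 3, and the groups overlapped. Its log2 fold change was -0.87 (standard error 0.56), or -0.21 without Sham replicate 3 and -1.51 without OVX replicate 1, and that of Ccr3, a receptor of Ccl5, was -0.15 (standard error 0.56), or 0.41 without Sham replicate 2 and -0.90 without OVX replicate 3. Ccr1 was highest in Sham replicate 3, as were these 4 chemokines. Cxcr2, the receptor of Cxcl2 and one of the 12 neutrophil genes, had a value of -1.23 (standard error 0.83), or -0.35 without Sham replicate 3 and -2.56 without OVX replicate 1. Cxcr6, the receptor of Cxcl16, had 6 to 16 reads per library and a value of -0.45 (standard error 0.61), or -1.22 without OVX replicate 1 and -0.12 without OVX replicate 3. Ccr4, the receptor of Ccl22, had at most 3 reads. Cxcr4, which holds B cells in the marrow, had the most reads and the highest value of the list, 0.47 (standard error 0.26), or 0.27 without Sham replicate 2 and 0.82 without Sham replicate 1.

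Most other chemokine ligands had few reads. Of 27 such genes 7 were tested and 6 had no read in any library. The median log2 fold change of the 7 was 0.56, with 4 higher and 3 lower in OVX, and it was -0.13 without OVX replicate 3, in which 5 of the 7 were highest. Ppbp, a chemokine of platelets, had 872, 944 and 1002 reads in Sham replicates 1 to 3 and 1516, 1292 and 3803 in OVX replicates 1 to 3. Each OVX library was above each Sham library in CPM, as was so for 4.33% of all genes tested. Its log2 fold change was 1.01 (standard error 0.31) with an adjusted p of 0.811 in edgeR, or 0.55 without OVX replicate 3. Ppbp was the only ligand of this list at an unadjusted p-value under 0.05 in edgeR's quasi-likelihood test. Of all genes tested, 1.47% were higher and 2.28% lower at that threshold. Ccl8 had the lowest value, -0.97 (standard error 0.57), or -0.22 without Sham replicate 2. No ligand of the list was called.

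**Figure D5:**
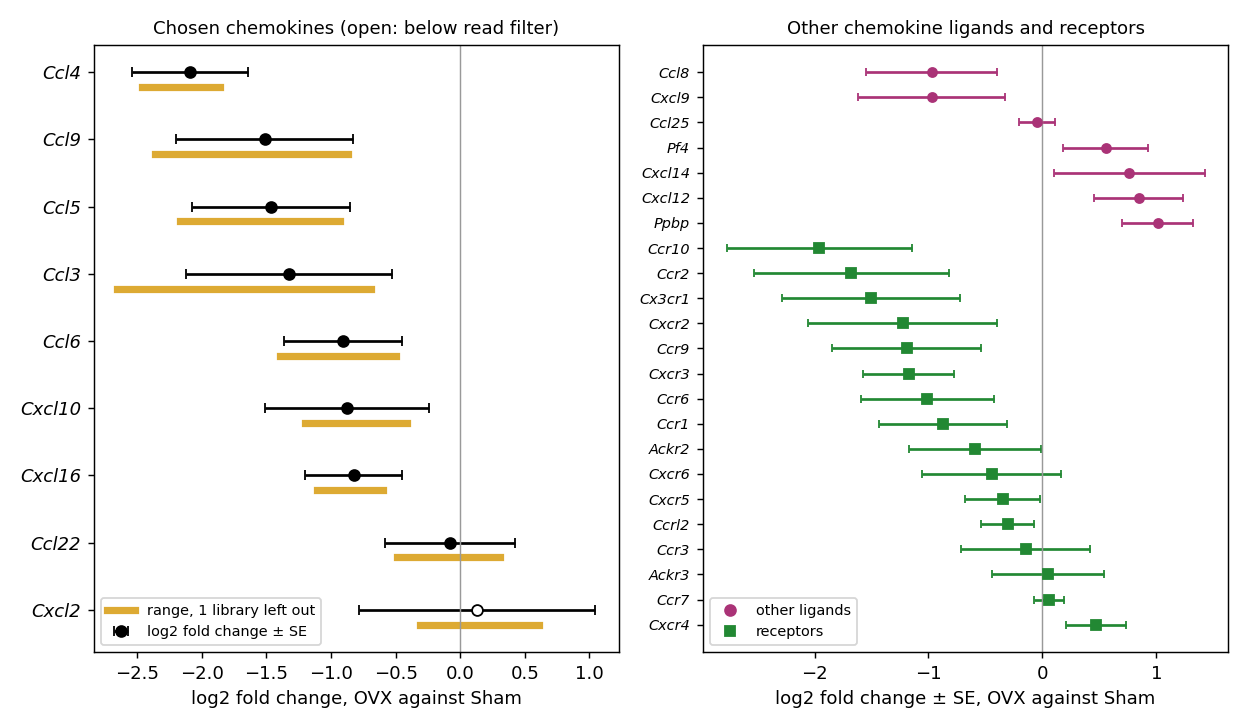
Log2 fold change of OVX against Sham with its standard error (x axes) for the 9 chosen chemokines (left) and for the other chemokine ligands and 16 of the 17 receptors that were tested (right). Yellow bars on the left show the range when one library is left out, which stays below 0 for Ccl3, Ccl4, Ccl5, Ccl6, Ccl9, Cxcl10 and Cxcl16 and spans 0 for Ccl22 and Cxcl2.

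Ccl3, Ccl4 and Ccl22 are known to be induced in B cells along with immediate early and kappaB-responsive genes, and 24 such activation genes were all tested. Their median log2 fold change was -0.01, with 12 higher and 12 lower, and 0 were called. At an unadjusted p-value under 0.05 in edgeR's quasi-likelihood test 2 were lower, Tnf and Egr3, and 2 were higher, Cd69 and Nfkbia. Over all genes tested the shares were 2.28% lower and 1.47% higher. Tnf, a cytokine gene of myeloid cells and lymphocytes, had 56, 196 and 190 reads in Sham replicates 1 to 3 and 53, 66 and 74 in OVX replicates 1 to 3. The groups did not overlap in CPM, but the lowest Sham library (2.36 CPM) and the highest OVX library (2.33 CPM) were close. The log2 fold change was -1.33 (standard error 0.42) with an adjusted p of 0.811 in edgeR. The log2 fold changes of Egr3, Cd69 and Nfkbia were -0.26 (standard error 0.11), 0.26 (standard error 0.07) and 0.23 (standard error 0.09), the last 2 being an early activation marker and an inhibitor of the kappaB factors. Egr3 was at -0.16 without Sham replicate 2. The groups of Egr3 and Cd69 did not overlap in CPM either, while those of Nfkbia did. Of all genes tested, 4.12% had each OVX library below each Sham library and 4.33% above. Dusp2, a phosphatase of MAP kinases, had a value of 0.26 (standard error 0.13), or 0.11 without OVX replicate 2.

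Cxcl10 is induced by interferon, and 12 interferon response genes were tested beside it. All 12 had values below 0, the lowest being -0.93 for Rsad2 (-0.36 without Sham replicate 3), and their median log2 fold change was -0.54. None was called, and 0 were at an unadjusted p-value under 0.05 in edgeR's quasi-likelihood test. Over all genes tested 51.8% had values below 0, and 2.28% were lower and 1.47% higher at that threshold. Of the 12, 11 were highest in Sham replicate 3, and without that library the median was 0.02. Cxcl10 was near its highest there, with 3.26 CPM against 3.42 CPM in Sham replicate 2. In Sham replicate 2 itself only 1 of the 12, Gbp2, was highest, and Ifit1 was at its lowest (4.3 CPM). In OVX replicate 2, where Cxcl10 was lowest (0.353 CPM), Isg15 was lowest too, but near Sham replicate 1 (6.11 against 6.92 CPM). Whether Cxcl10 moved with these genes was not tested.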

How the data were processed

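For 3 Sham and 3 OVX libraries the authors deposited read counts by Ensembl gene, without normalization. Per the labels, CASAVA, Bowtie 0.12.2 and the mm10 build were used, and the counting tool and strand setting are not given in the sources used here. Symbols matched 54409 of 54532 identifiers. The tools were edgeR 4.0.16, DESeq2 1.42.0 and limma 3.58.1, run in R 4.3.3. After filterByExpr and TMM scaling, the contrast of OVX and Sham was tested by quasi-likelihood, with Benjamini-Hochberg adjustment over 15305 genes and a call at an adjusted p-value under 0.05. Standard errors are the log2 fold change divided by the square root of F. Patterns used log2 CPM with a prior count of 2. The fit was tested on simulated data. Every pair of libraries differed by more than sampling noise.

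The members and lists were chosen with earlier results of these data known. Named genes were the 9 members, list genes at an unadjusted p-value under 0.05, receptors of members, the extremes of each list (some are not reported here) and the nearest genes in pattern. Gene lengths were not used, so levels are not compared between genes. Alternatives were DESeq2, limma-voom, library size only, RLE scaling, other filters, a replicate block, and each library left out.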

Additional observations from a re-analysis of the deposited data

How the results depend on the processing

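With all libraries included, Ccl4 kept a log2 fold change between -2.11 and -2.07. Of 109 alternative values for the 9 chemokines, 108 moved by less than the spread between libraries within groups. The exception was Ccl3 without OVX replicate 1 (-2.65). That limit is wide, as a library whose removal moves the value also widens the spread, so the count does not show stability. Within it, leaving one library out took Ccl9 from -2.36 to -0.86 and Ccl22 from -0.49 to 0.31. The number of genes called at an adjusted p-value under 0.05 was 0 in every alternative, and the lowest adjusted p-value was 0.273, without Sham replicate 1. The number at an unadjusted p-value under 0.05 was 574, or 755 with DESeq2, 1269 without the filter on low counts and 206 with the replicate block, and from 233 to 2698 with one library left out (2698 without Sham replicate 1, 360 and 286 without Sham replicates 2 and 3, 988 and 233 without OVX replicates 1 and 2). Of these genes 60.8% were lower in OVX, with 73% by DESeq2, 71.3% without the filter, and from 51.5% (without OVX replicate 2) to 77.6% (without OVX replicate 3) with one library left out, 53.5% and 54.9% being those without Sham replicates 1 and 3. Whether equally numbered libraries are paired is not known. Their deviations correlated at -0.41, -0.189 and -0.279 across genes, which does not decide it, since differences in other cells enter these values. With the replicate block 0 genes were called and Ccl4 had a log2 fold change of -2.09.

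With one library left out, the median log2 fold change ran from -0.13 to 0.86 for the other ligands, from -1.22 to -0.31 for the receptors (lowest without OVX replicate 1, highest without Sham replicate 2), from -0.08 to 0.02 for the activation genes and from -0.82 to 0.02 for the interferon response genes. Of 195 values for 15 other named genes 3 changed sign, those of Ccr3, to 0.41, 0.13 and 0.11 without Sham replicate 2, OVX replicate 1 and OVX replicate 2, its lowest value being -0.90 without OVX replicate 3. Cxcl2 had no value where the filter removed it. The causes were not tested. Few reads stood behind Ccl4 and Cxcl2, with 89 and 51 over all libraries.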

Other observations

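Further lists of other cells differed between libraries, and 0 of their genes were called. The 10 dendritic cell genes held 0.00496% to 0.0104% of the counts in Sham and 0.00389% to 0.00549% in OVX, and Batf3 had no read in OVX replicate 2, the library with the highest level of Ccl22. Most of this share came from Bst2, which in Sham replicate 3 gave 1516 reads, against 369 for Siglech, the next gene. The log2 fold change of Bst2 was -0.36, so the share does not stand for each gene of the list. Each of the 9 dendritic cell genes tested had a log2 fold change below 0 (median -1.19), against 51.8% of all genes tested, and 3 were lower at an unadjusted p-value under 0.05 in edgeR, against 2.28% of all genes. The 6 plasma cell genes held 0.0534% to 0.104% of the counts in Sham and 0.0457% to 0.0636% in OVX, with 4 lower and 2 higher. The 8 genes of bone marrow stroma held 0.0159% to 0.0631% in Sham and 0.0171% to 0.0549% in OVX, with 5 higher and 3 lower. Most of this share was Vcam1, which is also on the list of monocyte and macrophage genes. In Sham replicate 2, where Vcam1 was highest, it gave 16758 reads, against 342 for Cxcl12, the next gene. Of the 8 genes, 5 were instead highest in OVX replicate 3. The share therefore does not stand for each of them.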
